A study of Mus musculus with 12 samples.

Results

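Active STAT3 line 1 is 1 of 6 mouse cell lines derived from tumours, and its 2 arrays were set against the 10 arrays of the 5 other lines. The line was picked by its labels, with earlier results of these data known. Each line was read on 2 Illumina bead arrays, 12 in all, with total RNA of untreated cells cultured in RPMI and foetal calf serum. By their labels 3 lines carry wild-type STAT3 (wild-type lines 1, 2 and 3) and 3 carry a constitutively active STAT3 (active lines 1, 2 and 3). The labels name neither the tissue of the tumours, nor the form or promoter of the active STAT3, nor whether a line is a single clone, and they leave unsaid whether both arrays of a line share a culture. A difference between this line and the others is therefore a difference of 1 tumour line, and the genotype and the tumour it came from cannot be told apart.

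STAT3 is a transcription factor that is phosphorylated by JAK kinases below receptors of the IL-6 family, forms dimers and enters the nucleus, where it drives genes of survival, growth and the acute phase. Its constitutively active form keeps this activity without a ligand. Lines grown out of separate tumours also differ in which cell states and which chromosome changes they carry, and genes of 1 chromosome then often shift together.

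Values are log2 normalised intensities. A gene entered the comparison if 1 of its probes had a deposited detection fraction above 0.99 on both arrays of at least 1 line, which gave 7929 genes. Of these, 6954 were detected on both arrays of active line 1, 6524 in all 6 lines and 403 in a single line. The arrays of active line 1 detected 11807 and 11002 of 46632 probes, and the other 10 arrays between 11463 and 12798, so the second array of this line detected the fewest. Its 2 arrays correlated at r = 0.996 across genes. In cultured lines, fewer cells of a state and less RNA per cell cannot be told apart.

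Active line 1 was no outlier among the 6 lines as a whole. Its profile was nearest to wild-type line 3 and active line 2 (r = 0.975 across genes for each) and farthest from active line 3 (r = 0.941), with wild-type line 2 at 0.969 and wild-type line 1 at 0.966. Genes more than 1 log2 unit away from active line 1 numbered 324 in wild-type line 3, 371 in active line 2, 389 in wild-type line 2, 428 in wild-type line 1 and 816 in active line 3. Active line 3, which shares its genotype label, was thus the least like it. The root mean square difference of active line 1 from the mean of the other 5 was 0.39, against 0.37 for wild-type line 3 and 0.65 for active line 3, which bound the 6 lines. Stat3 itself, read by 2 kept probes, was at 12.69 and 12.79 on the arrays of active line 1, against means of 12.42, 12.80 and 12.76 in the wild-type lines and 12.27 and 11.50 in active lines 2 and 3. These values are from the brighter probe, and the 2 probes gave differences of 0.03 and 0.39, so the size depends on the probe. By the brighter probe the level in active line 1 lay inside the range of the other lines (difference 0.39, SE 0.49). The difference passed only the test on the spread between arrays (adjusted p = 0.00543 in limma). The level does not check the genotype label, since the active form need not change the amount of this transcript.

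1 gene was called when active line 1 was tested against the spread between lines, and it was detected in this line alone. Bpifb2, a secreted protein of the lipid-binding BPI fold family, was at 9.94 and 9.82 on the arrays of active line 1. It was at 4.92, 4.96 and 4.95 in wild-type lines 1 to 3 and at 4.92 and 4.84 in active lines 2 and 3, where no array detected it. The groups did not overlap, and the 5 other lines lay close together near the floor of the scale. Counting from the detection limit, the level was at least 13.2-fold higher. The test was run on the measured difference of 4.96 (limma moderated test of 1 line against 5, Benjamini-Hochberg adjusted p = 0.000249). The gene passed the detection filter only through active line 1, so that p rests on the spread of undetected signals in the other lines, and with probes required in at least 3 lines the count of called genes was 0. It was the only gene of 7929 called higher (0.0126%) in this test, and no gene was called lower (0%). Without adjustment 188 genes had p under 0.05, 53 higher and 135 lower. With 4 residual degrees of freedom the test asks for a difference far wider than the spread of the 5 other lines, and an exact permutation test of 1 line against 5 cannot go below p = 0.167. Bpifb2 was also the only gene called against the 2 other active lines (0.0126%, adjusted p = 0.00548, limma) and against the 3 wild-type lines (0.0126%, adjusted p = 0.00437, limma), and no gene was called lower in either (0% each). Both counts fell to 0 without wild-type line 1 or wild-type line 3, and the first also without wild-type line 2 or active line 3. Unadjusted p was under 0.05 for 249 and 220 genes in these 2 comparisons.

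2 further measures describe the remaining genes. The first counts genes whose mean in active line 1 lay outside the range of the 5 other line means: 1136 lay above all others (14.3%) and 931 below (11.7%). By more than 0.5 log2 units these were 20 above (0.252%) and 74 below (0.933%), and by more than 1 unit 6 above (0.0757%) and 10 below (0.126%). The split past 1 unit turned with the setting: it was 4 above and 2 below in the deposited log2 values, 4 and 4 from raw signals and 6 and 6 with an offset of 50. It also turned on single lines, with 8 above and 43 below without wild-type line 1, 21 and 16 without wild-type line 2, and 8 and 17 without wild-type line 3. The second is a limma model of the 12 arrays with a mean for each line, whose error is the spread between the arrays of a line. It called 1181 genes higher (14.9%) and 1305 lower (16.5%) than the mean of the other lines. Against single lines it called 2360 genes for wild-type line 1 (29.8%), 2806 for wild-type line 2 (35.4%), 2139 for wild-type line 3 (27.0%), 2170 for active line 2 (27.4%) and 3680 for active line 3 (46.4%). Genes called in 1 direction against each of the 5 lines numbered 69 higher (0.870%) and 143 lower (1.80%). These calls say that a level differs between the RNA samples on these arrays. They do not allow for the spread among lines and are named below as the array test. Without the second array of active line 1 the test called 455 genes higher and 667 lower, and after median scaling 418 higher and 548 lower.

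2 genes besides Bpifb2 were detected in active line 1 and on no array of the other lines. Asic1, a subunit of the acid-sensing sodium channels, was at 7.55 and 7.54 in active line 1 and between 5.22 and 5.55 in the other lines. It was at least 2.62-fold higher, and its adjusted p of 0.0699 in limma, like that of Bpifb2, was set against undetected signals. Msc, which encodes the repressor musculin of the basic helix-loop-helix family, was at 6.96 and 7.07 against 5.00 to 6.10, at least 1.82-fold higher. Without wild-type line 2 the genes detected in active line 1 alone numbered 14, and without its first array or without the second array of active line 1 they numbered 5. The promoters of Bpifb2 and Asic1 are shown because these genes stood nearest to an on and off pattern in this line. Each sequence is the 250 bases before the annotated start, from RefSeq on GRCm38.p6, with CpG dinucleotides in capitals.
Bpifb2, chr2:153874795-153875044, plus strand: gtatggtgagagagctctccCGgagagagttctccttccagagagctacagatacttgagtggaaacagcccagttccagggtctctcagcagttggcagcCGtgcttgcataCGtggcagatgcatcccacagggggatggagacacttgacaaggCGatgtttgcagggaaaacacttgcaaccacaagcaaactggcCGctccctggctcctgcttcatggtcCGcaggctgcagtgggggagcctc
Asic1, chr15:99691974-99692223, plus strand: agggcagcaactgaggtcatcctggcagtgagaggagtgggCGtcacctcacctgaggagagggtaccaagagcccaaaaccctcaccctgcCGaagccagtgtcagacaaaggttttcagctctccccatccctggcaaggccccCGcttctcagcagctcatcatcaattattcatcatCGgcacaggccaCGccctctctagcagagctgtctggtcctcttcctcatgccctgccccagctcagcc
The Bpifb2 window holds 6 CpG dinucleotides and the Asic1 window 5, and the median over 32851 mouse promoter windows of this length was 6. The STAT motif TTCNNNGAA, whose letters read alike on both strands, was found in neither window and in 7.02% of all windows. The TATA motif TATAAA on either strand was also in neither, and in 12.4% of all. The GC content was 57.2% for Bpifb2 and 59.2% for Asic1. No match says only that these letters are not in these windows.

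The other genes with wide gaps above all lines came from varied functions. Tmem82, a transmembrane protein, was at 8.75 and 8.81 in active line 1, at 6.52 in wild-type line 2, the other line where it was detected, and between 4.87 and 5.10 in the remaining lines. The small heat shock protein gene Hspb8 was at 11.74 and 11.62, above wild-type line 1, wild-type line 2 and active line 2 (9.93 to 10.11) and far above wild-type line 3 (8.03) and active line 3 (6.98). Rsph1, a component of the radial spokes of motile cilia, was at 11.44 and 11.55 against 7.58 to 10.03. These 3 genes were already spread widely among the other lines, and active line 1 extended that spread at its upper end. By contrast the other lines held close together for Calr3, a calreticulin family chaperone, which was at 9.60 and 9.65 against 8.07 to 8.55, a difference of 1.35 (SE 0.21). Lbh, a transcription cofactor, was at 9.42 and 9.49 against 7.85 to 8.50. Anapc13, a subunit of the anaphase-promoting complex, was at 9.82 and 9.75 against 8.27 to 8.85.

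Fhl1, a LIM domain protein of the cytoskeleton and nucleus, was at 10.64 and 10.73 in active line 1, with wild-type line 2 next at 9.82 and the other lines between 5.42 and 7.36. Kng1, the kininogen precursor of bradykinin, was at 9.10 and 9.07 against 7.29 to 8.32. Bcl2, the anti-apoptotic founder of its family, was at 10.44 and 10.63 against 8.86 to 9.68 by its brightest probe. Its 4 kept probes gave differences from 0.13 to 1.07, so the size depends on the probe. These 9 genes from Tmem82 to Bcl2, all detected in at least 1 other line, passed the array test, and none passed the test of 1 line against 5 (adjusted p of 0.787 or more in limma).

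On the lower side the widest gap was that of Aebp1, which encodes a secreted carboxypeptidase-like protein of collagen-rich matrix. It was at 9.59 and 9.61 in active line 1, against 13.22, 12.28 and 12.77 in the wild-type lines and 11.998 and 12.85 in active lines 2 and 3, and was detected in all 6. The difference was -3.03 (SE 0.45, adjusted p = 0.787 in limma), an 8.16-fold lower level. Hexa, the alpha subunit of lysosomal beta-hexosaminidase, was at 7.09 and 7.02 against 9.55, 9.41 and 9.66 in the wild-type lines and 9.41 and 10.24 in the active lines, a difference of -2.60 (SE 0.33, adjusted p = 0.598 in limma) or 6.07-fold. For both genes the 2 arrays of active line 1 read nearly alike, and their mean differed from the lowest other line by -2.40 for Aebp1 and -2.36 for Hexa.

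C2cd4a, a nuclear protein with a C2 domain, was at 6.16 and 6.60 against 8.17 to 9.15. Rnf208, a RING finger protein, was at 5.18 and 5.64 against 6.87 to 8.08 and was detected in every line but this one, at least 1.93-fold lower. Rangrf, a Ran-binding release factor, was at 7.63 and 8.05 against 9.20 to 10.71. Tfcp2l1, a transcription factor of the grainyhead-related CP2 family, was at 7.47 and 7.62 against 8.73 to 9.38. In these 4 genes both arrays of active line 1 lay below every other line mean.

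Acot6, an acyl-CoA thioesterase, was at 6.14 and 5.99 against 7.20 to 7.93, detected in every other line and not in this one, at least 2.48-fold lower. Gde1, a membrane glycerophosphodiesterase, was at 9.56 and 9.54 against 10.59 to 11.20. Acta1, the skeletal muscle actin, was at 5.17 and 5.25 and not detected in active line 1, with wild-type line 1 next at 6.18 and the remaining lines up to 9.43. Psmc1, an ATPase of the proteasome cap, is on this list through 1 array: it was at 8.51 on the first array of active line 1 and 5.92 on the second, against 8.32 to 9.64, and without the second array its level overlaps the other lines.

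**Figure D1:**
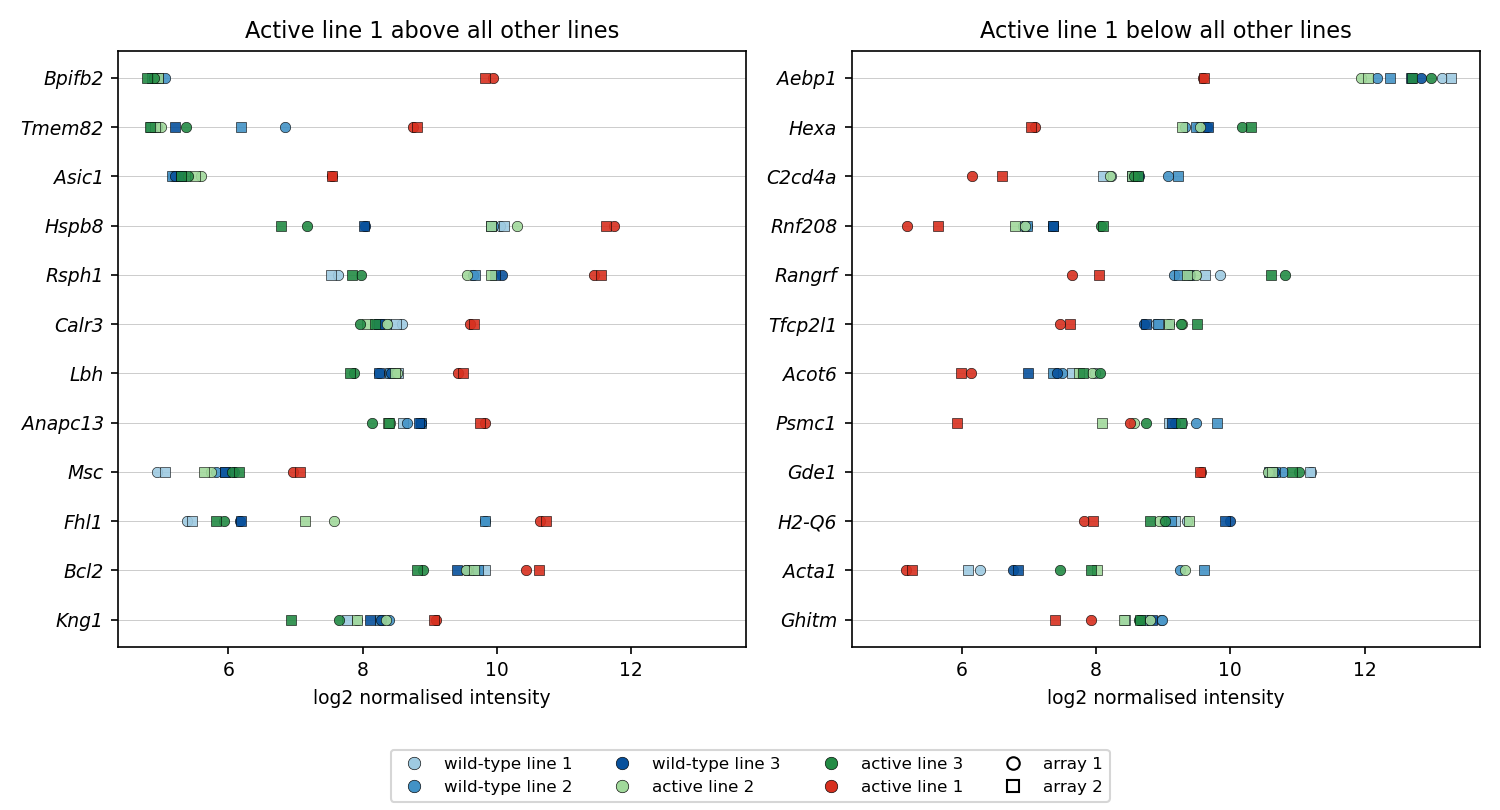
Log2 normalised intensity of the 12 genes with the widest gap above (left) and below (right) the 5 other lines, 1 row per gene; each point is 1 array, coloured by line, with circles for array 1 and squares for array 2. The red points of active line 1 stand apart in every row except Psmc1, where its first array (8.51) lies among the other lines.

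The genes detected on both arrays of every other line and on neither array of active line 1 numbered 21, against 7929 genes tested. Besides Rnf208 and Acot6, the widest gaps among them belonged to Rmdn2, a regulator of microtubule dynamics (6.06 and 5.85 against 6.84 to 7.65, at least 1.83-fold lower), and Slc43a3, a nucleobase transporter (6.18 and 5.93 against 6.86 to 8.39, at least 2.16-fold). Dlc1, a known tumour suppressor, was at 5.83 and 5.66 against 6.50 to 7.30, at least 1.37-fold lower. Nadsyn1, Samd12, Kcna6, Armcx6 and Nupl1 completed the 10 widest, with bounds between 1.27-fold and 1.81-fold. The 21 genes had means of 6.37 to 7.96 in the other lines, against a detection limit of 6.33 in active line 1. Among them Nupl1, Ccdc66, Xpo7 and Ptk2b lie on chromosome 14, which is described below. Without the first array of this line the set held 94 genes, without wild-type line 1 it held 45 and without active line 2 it held 38.

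The genes of 1 whole chromosome were lower together in active line 1. Genes were placed by the RefSeq table of GRCm38.p6, which located 7922 of the 7929. On chromosome 14, 254 of 274 genes (92.7%) were lower in active line 1 than the mean of the other lines. The median difference was -0.41 (quartiles -0.55 and -0.24), a 1.32-fold lower level, against a median of 0.02 for the 7648 genes placed elsewhere. Of the 274, 164 lay below all 5 other lines (59.9%, against 11.7% of all genes tested and 765 of the 7648 placed elsewhere), and 200 were lower by the array test (73.0%, against 16.5% of all). 53 of the 143 genes lower than each of the 5 lines by the array test and 17 of the 74 genes below by more than 0.5 were on this chromosome.

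Both arrays of the line carried the shift, with medians for chromosome 14 of -0.41 and -0.38. On the arrays of the other lines the medians, taken against the same mean of the 5 lines, lay between -0.17 and 0.07, with wild-type line 2 lowest (-0.13 and -0.17). When each line was set against the mean of its own 5 others, the medians of all other pairs of line and chromosome lay between -0.10 and 0.17, and chromosome 14 of active line 1 was the only median more than 0.2 from 0. The highest values, 0.08 to 0.17 in wild-type lines 1 and 3 and active lines 2 and 3, were on the same chromosome, where active line 1 is part of their comparison.

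**Figure D2:**
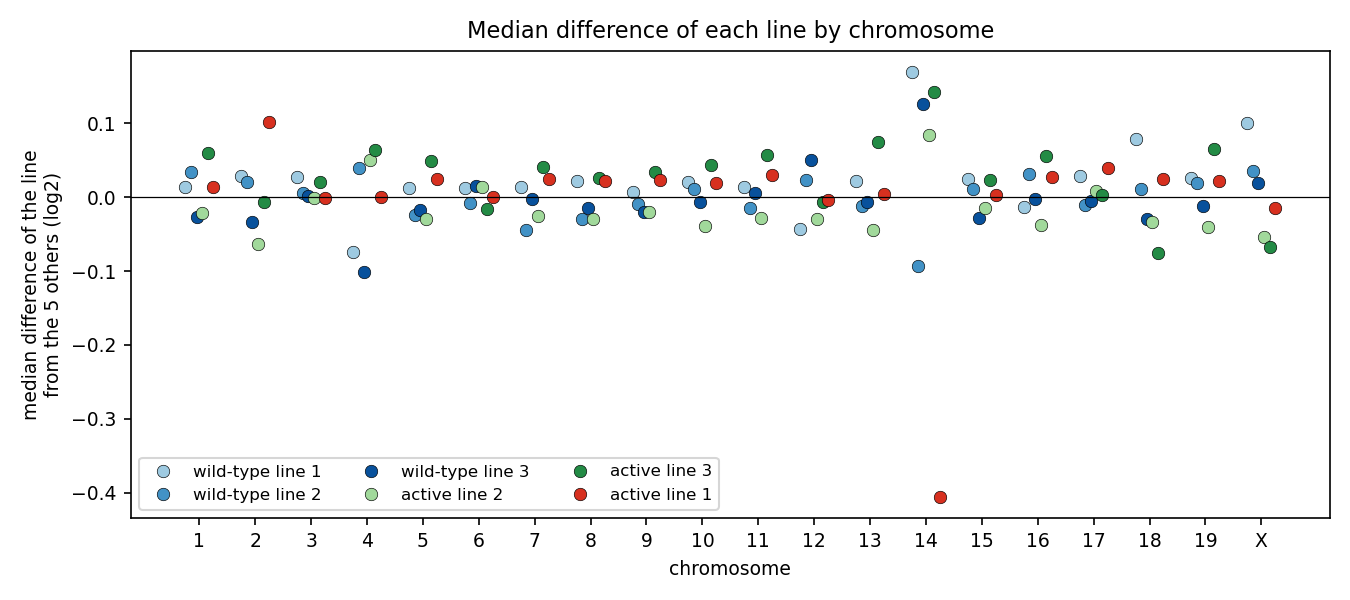
Median difference (log2) of each line from the mean of its own 5 other lines, over the tested genes of each chromosome; each point is 1 line. Active line 1 (red) is at -0.41 for chromosome 14 and at 0.10 for chromosome 2, and every other point lies between -0.10 and 0.17.

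The shift ran along the whole of chromosome 14. In 10 consecutive groups of 25 or more neighbouring genes the medians were all between -0.52 and -0.30, while 272 such groups on the chromosomes other than 2 and 14 had medians between -0.15 and 0.15. It was as large for dim as for bright genes: split by mean level into 3 parts, the chromosome gave medians of -0.38, -0.41 and -0.41. No 3 neighbouring tested genes all lay below the other lines by more than 0.5, and the longest such run was the pair Scara5, a scavenger receptor (7.15 against 7.90 to 9.25), and Pbk, a mitotic kinase (5.34 against 5.98 to 6.65, detected in 2 lines). The widest gap on the chromosome was that of Ghitm, a mitochondrial inner membrane protein, at 7.92 and 7.39 against 8.61 to 8.86, a difference of -1.05 (SE 0.16, adjusted p = 0.787 in limma).

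Of the 26 genes of chromosome 14 in the lists of pathways and markers, 24 were lower than the mean of the others, 19 by the array test, and 13 lay below all other lines. These shares were close to or under those of the whole chromosome (254, 200 and 164 of 274). Mmp14, the membrane-anchored matrix protease that activates other proteases, was at 11.86 and 11.98 against 12.51 to 13.10. Vcl, the focal adhesion protein vinculin, was at 9.36 and 9.15 against 9.79 to 10.40. Ctsb, the lysosomal protease cathepsin B, was at 10.20 and 9.97 against 10.64 to 11.07. All 3 were more than 0.5 below the lowest other line.

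Smaller gaps were seen for Psme1 and Psme2, the PA28 activators of the proteasome (12.18 against 12.37 to 12.92, and 10.09 against 10.22 to 10.78), for the death receptor gene Tnfrsf10b (7.49 against 7.68 to 8.42) and for the mitophagy receptor gene Bnip3l (9.97 against 10.01 to 10.79). Bmp1, a procollagen protease, and Bmpr1a, a BMP receptor, were also below every other line, by 0.01 and 0.05. Irf9, a transcription factor of interferon signalling, was at 8.17 against 8.13 in wild-type line 1 and 8.83 to 10.03 in the others, so here wild-type line 1 was lower still.

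The 20 genes of chromosome 14 that did not follow were led by Cldn10, a tight junction claudin, whose difference of 0.77 comes from its low level in active line 3 (4.93, against 9.54 to 10.75 in the other 5 lines). Of the 274, 1 lay above all other lines. This was Rb1, the retinoblastoma tumour suppressor, at 9.19 against 8.75 to 8.96, a difference of 0.31 (SE 0.15), higher by the array test (adjusted p = 0.0118 in limma).

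**Figure D3:**
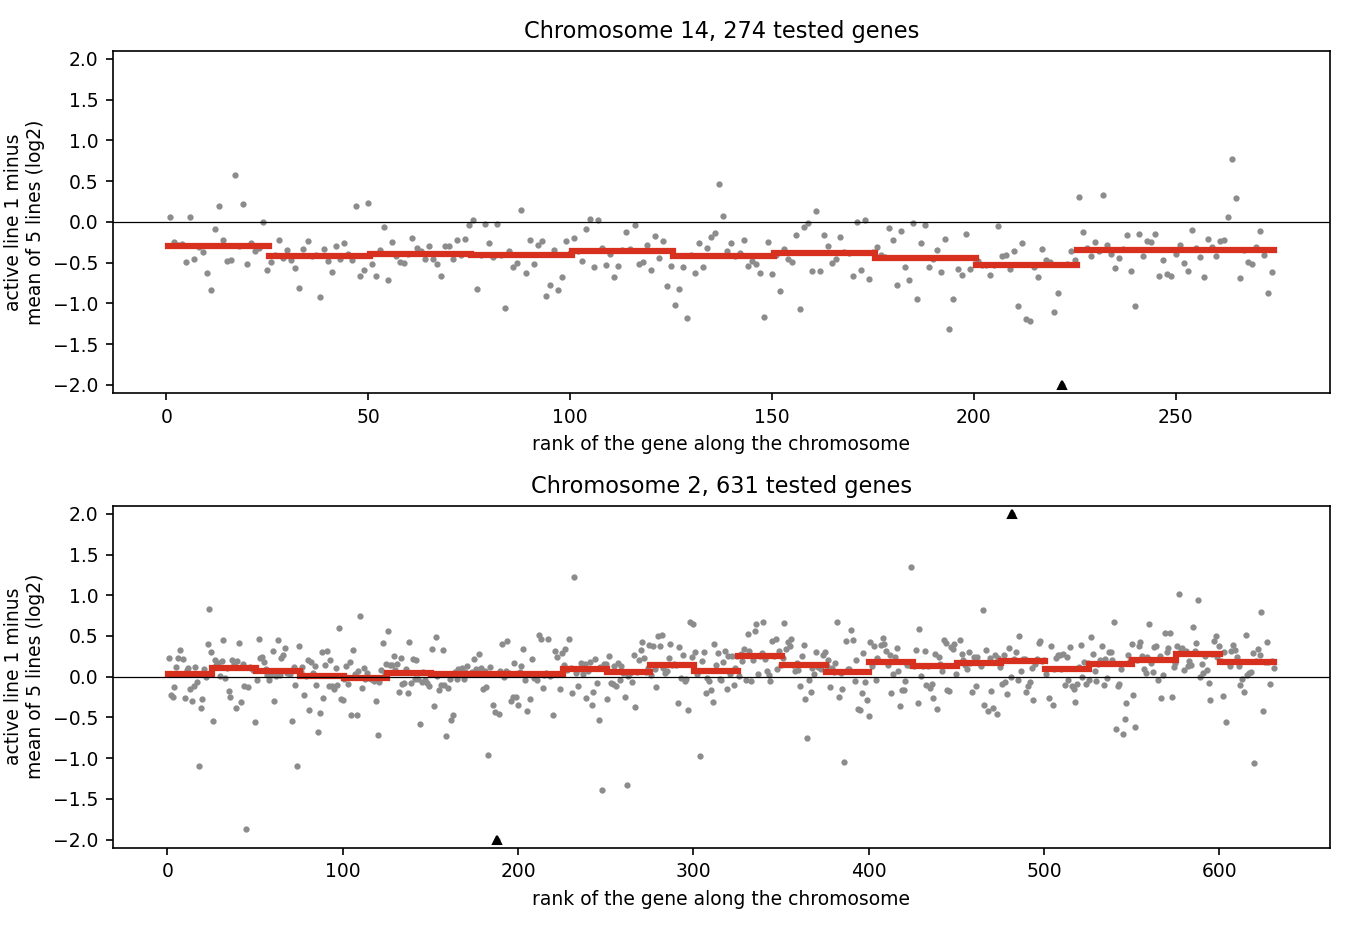
Difference of active line 1 from the mean of the 5 other lines (log2) for each tested gene, ordered along chromosome 14 (top) and chromosome 2 (bottom); grey points are genes, triangles genes beyond 2 units, and red bars the medians of groups of 25 or more neighbouring genes. All 10 bars of chromosome 14 lie between -0.52 and -0.30. The bars of chromosome 2 lie between -0.02 and 0.11 in the first 11 groups and between 0.06 and 0.28 in the last 14 groups.

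Chromosome 2 showed a smaller shift upwards. 418 of its 631 genes (66.2%) were higher in active line 1, with a median of 0.10, and 174 lay above all other lines (27.6%, against 14.3% of all genes tested). 2 stretches differed: the first 275 genes had a median of 0.04, with 18.5% above all other lines, and the 356 genes from Mapk8ip1 to the end had a median of 0.16, with 34.6% above. In that second stretch the 14 groups of neighbouring genes had medians of 0.06 to 0.28, and the medians of the other lines over the same genes, against the mean of the 5, were -0.05 to 0.04. The 11 groups of the first stretch had medians of -0.02 to 0.11. Some groups of the second stretch lay within that range and within the -0.15 to 0.15 of groups on chromosomes other than 2 and 14. The boundary was set after seeing the values. Bpifb2 lies in the second stretch, with a difference far beyond these medians. Whether DNA copies, gene regulation or both went with these chromosome-wide differences was not tested.

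The interferon-stimulated genes were the list with the lowest median. These genes are switched on after interferon and serve antiviral defence. 21 of 22 tested members were lower in active line 1 than the mean of the others, with a median of -1.01 (all genes tested 0.02), 16 passed the array test downwards (16.5% of all genes did) and 5 lay below all other lines (11.7% of all). Over 11 other settings the median was -1.24 to -0.62, and such ranges are given below with the medians of the other lists. No member passed the test of 1 line against 5. Ifi27 was at 9.01 and 8.86 against 9.60 to 10.69, Ifit2, which binds viral RNA, at 6.26 and 6.39 and below the detection limit on 1 array against 6.86 to 7.46, and Parp14 at 7.47 and 7.19 against 7.92 to 9.05. These ranges are of line means, and for Parp14 the arrays of active line 2 read 7.62 and 9.03. Ifit2 and Ifi27, but not Parp14, were lower than each of the 5 lines by the array test. Eif2ak2, the RNA-dependent kinase PKR, was at 10.97 against 11.25 to 11.89.

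Wild-type line 1 was as low over this list: its median against the mean of the 5 lines was -1.04, and 21 of 22 members were below the mean of its own 5 other lines. Irf7, the master regulator of type I interferon, was at 5.98 in active line 1 and 6.0 in wild-type line 1, against 6.56 to 7.94 in the others. The antiviral membrane protein gene Bst2 was at 10.33 in active line 1 but at 8.81 in wild-type line 1, against 11.59 to 12.59. Low levels of these genes were therefore shared by 2 lines of different genotype labels. Of the 22 members, 1 lies on chromosome 14 (Irf9).

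MHC class I and antigen processing genes, which present peptides to T cells, were lower in 17 of 18 cases, with a median of -0.33 (other settings -0.41 to -0.22), 10 lower by the array test (16.5% of all genes) and 7 below all other lines (11.7% of all). H2-Q6, a non-classical class I gene, was at 7.81 and 7.95 against 8.91 to 9.96. Its near-identical relatives can share a probe, so the value may not belong to this gene alone. B2m, the light chain of class I, was at 13.23 against 13.31 to 13.73, Tapbp, the peptide-loading protein tapasin, at 6.83 against 7.0 to 7.28, and H2-T23 at 9.17 against 9.34 to 10.43. 2 members, Psme1 and Psme2, are on chromosome 14. The median without chromosome 14 was -0.31, and wild-type line 1 again lay alongside, at -0.35.

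Genes of matrix and its remodelling were lower in 30 of 45 cases, with a median of -0.22 (other settings -0.38 to -0.18). Against the same mean, wild-type line 1 was lower still, at a median of -0.30, and active line 3 was at 0.38. Wild-type lines 2 and 3 and active line 2 lay between -0.06 and -0.004. By the array test 21 were lower (16.5% of all genes) and 3 higher (14.9%), and 9 lay below all other lines (11.7%). Fn1, the matrix glycoprotein fibronectin, was at 9.78 and 9.77 against 10.47 to 10.82, below each line by the array test. Ecm1 was at 9.88 against 10.34 to 11.29, Timp2, an inhibitor of matrix metalloproteases, at 9.25 against 9.35 to 11.48, and Plaur, the urokinase receptor, at 9.82 against 9.92 to 11.08. Aebp1, outside the list, is also a matrix protein.

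Of 12 tested mesenchymal and fibroblast markers 10 were lower (median -0.61, other settings -0.83 to -0.28), 9 by the array test, which called 16.5% of all genes lower. Of 19 basal and myoepithelial markers 17 were lower (median -0.54, other settings -0.77 to -0.23), 13 by the array test, with 1 higher. Both medians were nearest 0 without active line 3. Below all other lines lay 2 of the 12 and 1 of the 19, against 11.7% of all genes. Over both lists wild-type line 1 was lower still, at medians of -0.88 and -0.99. Krt17, a basal keratin, was at 6.95 in active line 1, 5.69 in wild-type line 1 and 8.24 to 11.15 in the others, and Cav1, the caveolar coat protein, at 6.24 against 4.80 and 7.73 to 8.66. Krt14, another basal keratin, differed by -0.04 and was at 11.23 in active line 1, inside the range of 7.51 to 12.69.

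The TGF-beta and BMP pathway had 19 of 30 members lower, with 11 below all other lines (11.7% of all genes did), and 13 were lower and 6 higher by the array test (16.5% and 14.9% of all). The median was -0.18 and lay between -0.17 and -0.04 in the other settings, nearest 0 for genes detected in at least 3 lines. Among the ligands, Tgfb1 was at 6.62 and 6.51 against 7.07, 7.10, 8.33, 8.25 and 7.99, and Inhbb, a subunit of activin B, at 8.18 against 8.28 to 9.41. Among the receptors, Acvr1 was at 8.62 against 8.95 to 9.27 and Bmpr2, detected in 1 line, at 5.68 against 5.84 to 6.36. The BMP signal transducer gene Smad1 was at 7.11 against 7.29 to 7.79, and the BMP target Id1 at 11.60 against 11.85 to 12.17. Smad4, the shared partner of these transducers, was above the other lines instead, at 12.13 against 11.996 to 12.07, and did not pass the array test (adjusted p = 0.281 in limma). 3 members are on chromosome 14, 2 of them below all other lines, and the other 9 lie elsewhere.

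Keratin and epithelial junction genes were lower in 25 of 32 cases, with a median of -0.15 (other settings -0.17 to -0.10). By the array test 10 were lower and 2 higher (16.5% and 14.9% of all genes), and 10 lay below all other lines (11.7%). Cldn1, a tight junction claudin, was at 10.71 on both arrays against 11.13 to 11.59, and Evpl, the cornified envelope protein envoplakin, at 6.92 against 7.38 to 8.35. Cdh1, the adherens junction cadherin of epithelia, was at 8.33 against 8.53 to 9.09, and Krt8, a simple epithelial keratin, at 13.59 against 13.67 to 14.001. These 4 genes were detected in every line, with differences of -0.90 to -0.23.

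**Figure D4:**
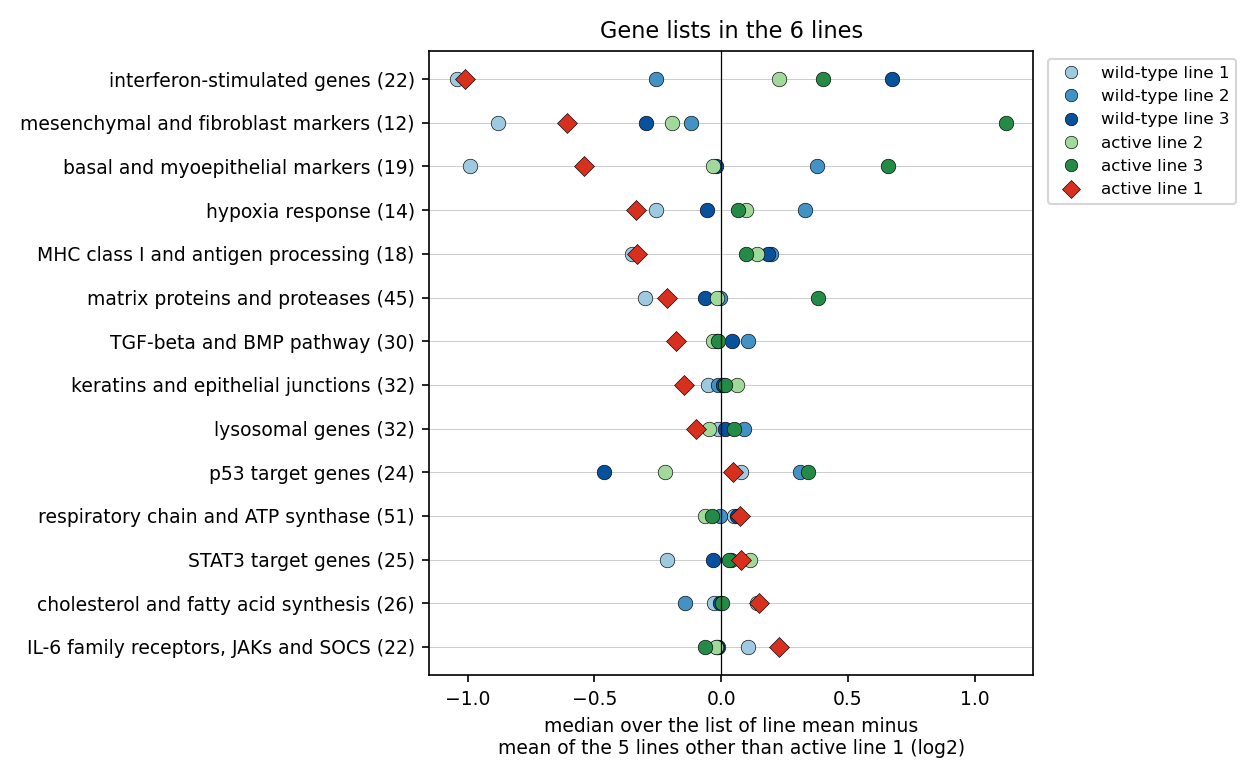
Median over each gene list of the difference between a line's mean and the mean of the 5 lines other than active line 1 (log2), with the number of tested genes in brackets; circles are the 5 other lines and red diamonds active line 1. For interferon-stimulated genes active line 1 (-1.01) lies beside wild-type line 1 (-1.04), and for the TGF-beta and BMP pathway (-0.18) and the keratins and junctions (-0.15) it lies below every other line.

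Lysosomal genes had 11 of 32 members lower and 2 higher by the array test (16.5% and 14.9% of all genes), with a median of -0.10 (other settings -0.13 to -0.04). Besides Hexa and Ctsb, these were led by the cathepsin gene Ctsc, at 9.98 against 10.37 to 10.77, with Tpp1, a tripeptidyl peptidase, at 6.62 against 6.89 to 7.26 and Ctsh at 11.12 against 11.25 to 11.73. Gaa, the acid alpha-glucosidase, was above the other lines at 10.94 against 10.53 to 10.73, and passed the array test (adjusted p = 0.00926 in limma). In the hypoxia list 9 of 14 genes were lower (median -0.33, other settings -0.40 to -0.11, without chromosome 14 -0.23). Wild-type line 1 was also low over this list, at -0.26, and the remaining lines lay between -0.06 and 0.33. Ndrg1, a hypoxia-induced growth suppressor, was at 6.56 against 6.95 to 8.75, and Vegfa, the vascular growth factor, at 7.03 against 7.25 to 8.02, while Egln3, a prolyl hydroxylase of the same response, was at 10.01, between 5.09 in active line 3 and 10.02 in wild-type line 2.

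Listed STAT3 target genes were split in direction. 15 of 25 were higher and 10 lower than the mean of the others (median 0.08, other settings 0.04 to 0.13), 5 passed the array test in each direction, 2 lay above and 3 below all other lines. The array test called 40% of the list in either direction, against 31.4% of all genes (14.9% higher and 16.5% lower). The counts above and below all other lines were near or under the shares of all genes, 14.3% and 11.7%. Fos, an immediate early gene, was at 8.05 against 8.35 to 8.85, and Dusp1, an immediate early phosphatase of the ERK feedback list that switches off MAP kinases, was at 8.47 on both arrays against 9.24 to 9.78. Tnfrsf1a, a TNF receptor, was at 12.40 against 11.85 to 12.36.

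The receptors, kinases and inhibitors of IL-6 signalling were higher in 15 of 22 cases, with a median of 0.23 (other settings 0.16 to 0.27). By the array test 9 were higher and 4 lower (14.9% and 16.5% of all genes), and 7 lay above all other lines (14.3% of all genes did). Il6ra, the IL-6 binding receptor chain, was at 6.93 and 7.18 against 6.35 to 6.68. The phosphatase genes Ptpn1 and Ptpn2, whose products dephosphorylate JAKs and STATs, were at 8.89 against 8.49 to 8.64 and at 8.33 against 7.94 to 8.10. Ptpn1, with a difference of 0.31, lies in the second stretch of chromosome 2, in a group of neighbouring genes with a median of 0.28. The SOCS genes Socs4, on chromosome 14, and Socs5 were below the others, at 7.67 against 7.79 to 8.02 and 9.88 against 9.999 to 10.49. The widest gap in this list was that of Il6ra, 0.37.

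Of 24 p53 target genes, 10 were higher and 5 lower by the array test (14.9% and 16.5% of all genes), and 5 lay above all other lines (14.3% of all). Trp53inp1, a stress-induced partner of p53, was at 9.93 against 8.52 to 9.70, Dram1, an autophagy modulator, at 8.05 against 6.79 to 7.80, Apaf1, the apoptosome scaffold, at 9.70 against 8.94 to 9.57, and Ccng1, cyclin G1, at 12.82 against 11.22 to 12.73. Cdkn1a, the cell cycle inhibitor p21, was at 12.31, above wild-type line 3 (11.32) and active line 2 (11.51) and level with active line 3 (12.32). Over the list active line 1 was within the other lines: its median was 0.04 (other settings 0.02 to 0.09), between those of wild-type line 3 (-0.46) and active line 3 (0.34). Tnfrsf10b, on chromosome 14, was the member below all others.

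Cholesterol and fatty acid synthesis genes were higher in 22 of 26 cases, with a median of 0.15 (other settings 0.10 to 0.21), 7 higher and none lower by the array test (14.9% and 16.5% of all genes). Lss, lanosterol synthase, was at 10.29 against 9.75 to 10.05 and Mvd, of the mevalonate pathway, at 8.88 against 8.05 to 8.79. Active line 2 had nearly the same median, 0.14. Respiratory chain and ATP synthase genes lay above all other lines in 18 of 51 cases (14.3% of all genes), with a median of 0.07 (other settings 0.04 to 0.12). By the array test 5 were higher, a share under the 14.9% of all genes. In the glutathione and redox list Gstt2, a glutathione transferase, was at 7.63 and 7.60 against 8.55 to 10.50, while Gsta3, of another transferase class, was at 11.66 against 9.03 to 11.31 and Ephx1, an epoxide hydrolase, at 12.86 against 11.86 to 12.59.

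Among patterning factors, Msx1 was at 5.10 and 5.06 against 5.63 to 8.36, undetected in active line 1 and wild-type line 3, Hoxa7 was at 7.16 against 7.60 to 9.96, and Dlx3, a homeobox factor of epithelia, was above the others at 9.62 against 8.52 to 9.17. Hoxb2 was at 10.49 in active line 1, in the group of wild-type lines 2 and 3 and active line 3 (10.14 to 10.91) and apart from wild-type line 1 (5.54) and active line 2 (6.08). Cavin3, which supports caveolae, was at 5.27 and 5.26 and not detected in active line 1, nor in wild-type line 3 (5.76). It was at 6.34 and 7.94 in wild-type lines 1 and 2 and at 11.27 and 11.32 in active lines 2 and 3. Proliferation genes gave a median of -0.10 (other settings -0.13 to -0.03), with 2 of 42 higher and 6 lower by the array test, shares under the 14.9% and 16.5% of all genes. Cp, the copper carrier ceruloplasmin, was at 7.45 and 7.40 against 7.93 to 8.70 and was the member of the milk and secreted protein list with the widest gap.

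Markers of other cell types were mostly absent from all lines. 3 of 20 leukocyte markers on the array, 3 of 14 endothelial markers and none of 10 adipocyte markers could be tested. The leukocyte genes Laptm5 and Lyz2 were at 4.62 and 4.67 in active line 1, at the floor of the scale, and were high in wild-type line 2 alone (7.36 and 7.24). The third, Cd14, was at 12.59 against 11.66 to 12.87, inside the range of the other lines and higher than their mean by the array test (adjusted p = 0.0456 in limma). The endothelial receptor genes Flt1 and Kdr were at 8.35 and 7.54, inside the ranges of the other lines.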

How the data were processed

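Total RNA of 6 mouse tumour-derived lines was measured on Illumina bead arrays, 2 arrays a line. BeadStudio 3.1.7 and lumi are listed in the submitters' processing notes, without their roles. For each probe the deposited table gives, per the file headers, a linear signal intensity and a detection fraction from 0 to 1. A second deposited table holds normalized log2 values of the same arrays, whose normalization is not stated; it served as an alternative. Intensities were background-corrected, quantile-normalized and logged with neqc of limma 3.58.1 in R 4.3.3 (offset 16, detection p as 1 minus the fraction). Probes detected above 0.99 on both arrays of at least 1 line were kept, 13038 of 46632, of which 2594 carry no gene symbol. The brightest kept probe stands for a gene, and 1964 genes had more than 1. Arrays were averaged per line and lines compared with lmFit and eBayes, with Benjamini-Hochberg adjustment at 0.05 over 7929 genes. The array test fits a mean per line to 12 arrays with 6 residual degrees of freedom. Its p-values reflect how far arrays of 1 line differ, and that may be technical spread alone. A lower bound on a fold sets the dim group at the detection limit.

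Replicate numbers did not pair the arrays: over 15 pairs of lines the deviations of same-numbered arrays correlated at -0.23 to 0.30, above 0.1 in 2 pairs. By rule the text names Stat3, the called genes filled up to 12 in each direction by the widest gap to the other lines, the 10 widest gaps among genes detected, or undetected, in active line 1 alone, and up to 4 members of each list with a gap over 0.5. Other genes were named after their values were seen. The 41 lists, the line and the rules were chosen with earlier results of these data known. Gene symbols come from the platform annotation, and positions and promoters from RefSeq tables. The model was tested on simulated data.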

Additional observations from a re-analysis of the deposited data

Results flagged for a closer look

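4 probes with no gene symbol in the annotation lay more than 1 log2 unit above all 5 other lines in active line 1, outside the named genes that the comparisons used. ILMN_1257039 was at 7.63 against 4.99 to 5.19, a gap of 2.44 to the nearest line. ILMN_1218717 was at 8.93 against 4.63 to 6.58, a gap of 2.35, with wild-type line 2 the nearest, as for Tmem82. ILMN_2515830 was at 8.995 against 7.54 to 7.91, a gap of 1.08, and ILMN_2420875 at 8.17 against 5.97 to 7.14, a gap of 1.04.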

How the results depend on the processing

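All 1171 values of named genes, over 26 settings, kept their direction, and 1 crossed the threshold: Tmem82 passed the test of 1 line against 5 without wild-type line 2 (3.78, adjusted p = 0.0147 in limma). Apart from Stat3, the genes named by rule had a mean outside the range of the 5 other lines. Leaving out an array or another line could therefore hardly turn their direction, and the kept directions say little about stability. The count called against the 5 other lines was 0 when probes had to be detected in at least 3 or in all 6 lines, as were those against the other active and the wild-type lines, because this filter removes Bpifb2. It was 2 with no filter, 4 with the line as a random block on 12 arrays (2 higher, 2 lower), 2 with unnamed probes added, and 1 to 4 when 1 array or line was left out. The other active and the wild-type comparisons gave 0 to 2 in such leave-outs, and the wild-type one 2 with unnamed probes, an alternative chosen after seeing the data. The array test called 966 genes after median scaling, 1122 to 2863 in leave-outs, and 2374 with the replicate number as a block (1111 higher, 1263 lower), a fit not run for the comparisons of line means, which hold 1 value a line; without chromosome 14, also added later, it called 2229. Genes outside by over 1 log2 unit numbered 16 in the main setting, 8 from raw signals with an offset of 50, 6 from the deposited log2 values, 9 if detected in all 6 lines, and 15 to 51 in leave-outs. Genes detected in active line 1 alone were 5 at a detection fraction of 0.95 and 3 to 14 in leave-outs, and those undetected in it alone 21 to 94. The median of chromosome 14 was -0.30 from raw signals and from the deposited log2 values and -0.45 to -0.38 in leave-outs. That of chromosome 2 was 0.08 from raw signals, 0.07 from the deposited log2 values and 0.09 to 0.11 in leave-outs. After median scaling it was 0.15 (0.145), where the median of all genes was 0.06. Medians of 15 of the 40 lists with a tested gene changed sign in at least 1 of 11 settings, none of them a median printed in the text above. The cause of these shifts was not tested. Signals near background limit the genes close to the detection threshold.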
